A study of Cricetiscus sungorus with 24 samples.

Results

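The kidneys of short-day Siberian hamsters given prolactin (PRL) were compared with those given saline (SAL). All 12 animals were adult females held for 8 weeks in a short photoperiod (SP, 8 h of light per day). Of these, 6 received 18 µg PRL daily for 3 days and 6 received vehicle, which the labels call saline and the methods describe as dimethyl sulfoxide with saline. The hormone was of sheep origin, the kidneys were taken a few hours after lights on, and kidney RNA was read as nanopore cDNA on 1 flow cell for all 12 libraries. The methods describe frozen kidneys cut across, with one piece sectioned and the remaining piece kept for molecular work, so a library need not hold all regions of the kidney in equal shares. No long-day females and no uninjected animals were in this comparison, and both groups shared the short photoperiod, the sex and the injections. The series holds 24 libraries, and the 12 of these females are described here.

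Genes were described when they had at least 120 reads over the 12 libraries, a choice that used depth summed over both groups. A gene high in 1 group could therefore pass mainly through that group. Npy, Acsf2, Uba1 and Clu had most of their reads in PRL libraries, and Rnu1b1 had most in SAL libraries. For each gene the mouse transcript with most reads stood for the gene. Of 15842 genes in the table, 3213 (20.3%) were members by this rule, and they took 91.4% to 93.6% of the reads of a library. The rule sits on a slope of depth with no gap: 36 members had 120 or 121 reads, and 53 genes just outside had at most 119.618. Levels are given as CPM, the reads of a gene scaled to the same total in every library. The hamster reads were aligned to mouse transcripts, and some genes had nearly the same counts as others: 260 members fell into 84 sets whose counts differed by at most 5%, and with each set taken once the 3213 members were 3037.

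Prolactin is a pituitary hormone whose secretion depends on day length in many seasonal mammals. Its receptor, Prlr, is a cytokine receptor with no enzyme activity of its own. It works through the kinase Jak2, which phosphorylates the transcription factors Stat5a and Stat5b, and the target genes Cish and the Socs family then damp the signal. In kidney, prolactin is known for its part in salt and water handling, and the tubule segments that do this work have well-defined marker genes.

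Totals with 1 transcript per gene were 218957 to 531690 reads in SAL libraries and 174053 to 756523 in PRL libraries, so 1 read was worth 1.32 to 5.75 CPM. A gene without a read could still have been present at up to 3 reads, worth 3.97 to 17.2 CPM, a limit for counting error alone. The defining tubule markers Slc34a1, Lrp2, Umod, Slc12a1, Slc12a3 and Aqp2 were counted in all 12 libraries, whereas the fat marker Adipoq was found 9 times in SAL libraries and 16 times in PRL libraries. The first principal component of the members held 35.5% of the variance and did not separate the groups. On it, SAL 6 (32.1), PRL 3 (18.3) and SAL 5 (17.4) lay at one end and PRL 5 (−18.2), SAL 3 (−17.4) and PRL 2 (−16.9) at the other. The second component held 14.8%, and on it 5 of 6 SAL libraries lay between 3.48 and 13.9 with SAL 6 at −8.69, whereas 5 of 6 PRL libraries lay between −20.1 and −0.97 with PRL 4 at 10.99. The summed level of 43 proximal tubule genes was 7877 CPM in PRL 5 and 3448 CPM in SAL 6, and both groups were spread between such values (SAL 3448 to 7566 CPM, PRL 3796 to 8006 CPM). In RNA from a piece of kidney, fewer cells of a type, less RNA per cell and a different share of regions in the piece cannot be told apart.

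**Figure D1:**
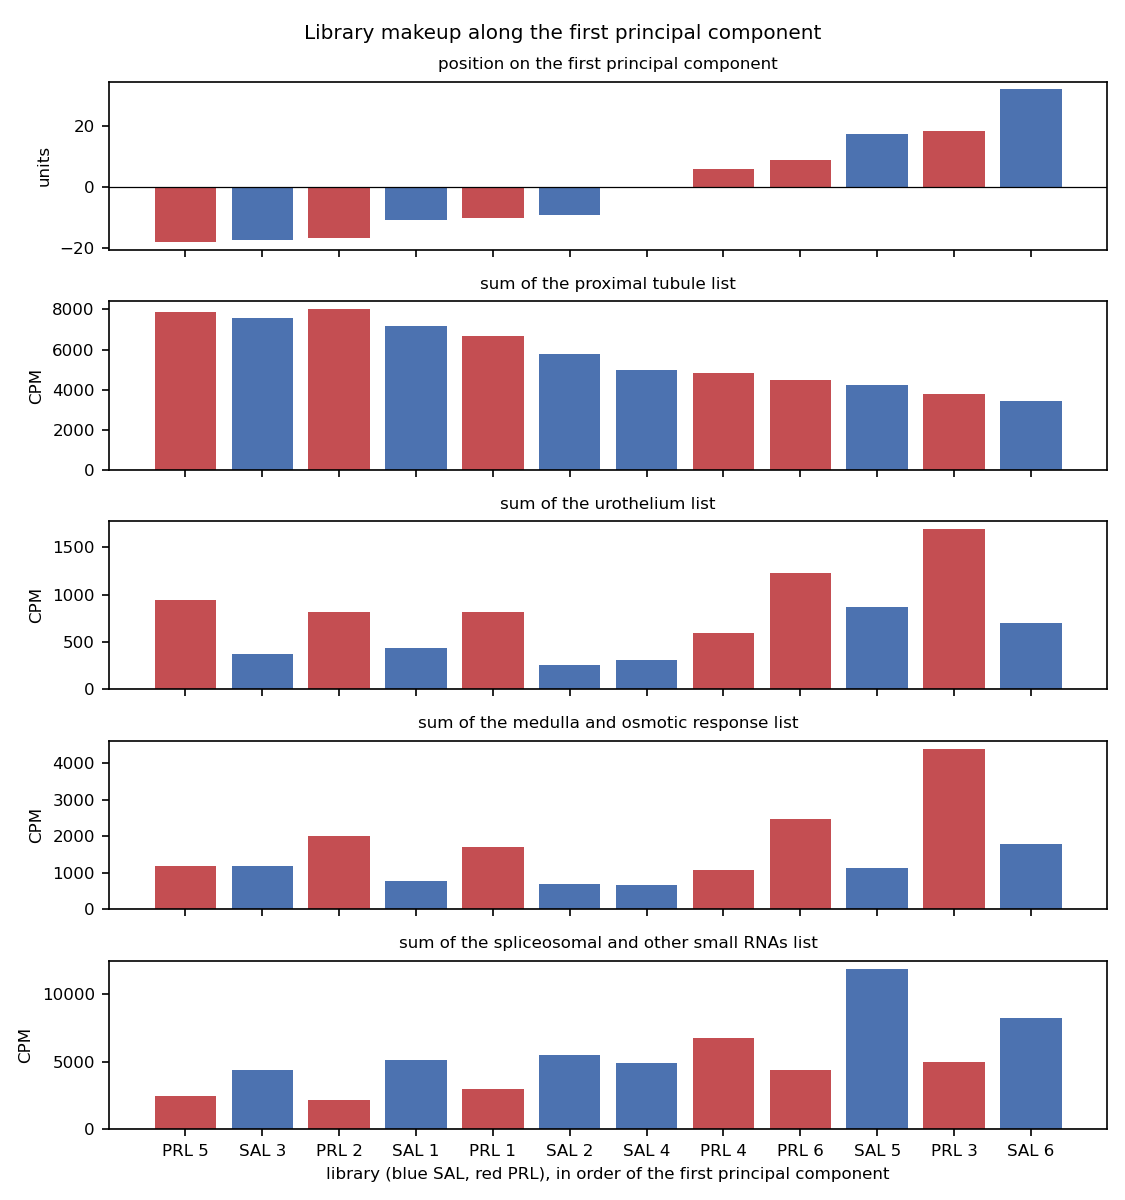
Position of each library on the first principal component of the members (top) and summed CPM of 4 gene lists (below), libraries ordered by that component, SAL in blue and PRL in red. The proximal tubule sum is lowest in SAL 6 at 3448 CPM, both groups are spread along the order, and the urothelium sum is highest in PRL 3 at 1692 CPM.

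No member differed between PRL and SAL past an adjusted p of 0.05. With edgeR's quasi-likelihood test over 10696 genes, 0 of 3213 members and 0 of all genes tested were called (background 0%), with a smallest adjusted p of 0.165. DESeq2 and limma-voom also called 0 members. An exact permutation test called 0 too, but could hardly do otherwise. Its smallest possible p of 0.00216 passes adjustment over 10696 genes only if very many genes reach it. At an unadjusted p under 0.05, 78 members (2.43%) were higher in PRL, against 2.54% of all genes tested, and 131 (4.08%) were lower, against 2.34%. With near copies taken once, 74 were higher (2.44% of 3037) and 60 were lower (1.98%) in the same fit, whereas a new fit with 1 gene of each set gave 66 higher and 78 lower. Scaling by library totals alone gave 108 higher and 113 lower members (48.9% higher, against 37.3%), and the exact permutation test gave 96 higher and 56 lower (63.2% higher).

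The number of calls depended on single libraries. Leaving out PRL 4 gave 44 called members (4 higher, 40 lower), leaving out PRL 3 gave 26 (1 higher, 25 lower), leaving out SAL 6 gave 25 (24 higher, 1 lower), leaving out SAL 5 gave 1, and leaving out any other library gave 0. Most of the lower calls were copies of the same small RNAs: the 44 members without PRL 4 were 8 sets. Without the 4 libraries lowest in proximal tubule genes (SAL 5, SAL 6, PRL 3 and PRL 6), a choice made after seeing the data, 32 members were called, 20 higher and 12 lower.

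Most members were measured well enough to bound the difference. The middle 90% of log2 fold changes (PRL over SAL) ran from −0.50 to 0.44 with a median of −0.0016 (0.03 over all genes tested), and the median standard error was 0.26. The edgeR p-values and intervals set a difference against a spread between animals that edgeR partly borrowed from all genes. They do not rest on the spread of each gene alone, whereas the exact permutation p used only the gene's own values. For 2757 members (85.8%) the 95% interval lay within a 2-fold change in either direction. For the other 456 the interval reached beyond 2-fold. Fitted differences over 2-fold were found in 77 members, 16 higher and 61 lower in PRL. The 61 counted near copies singly: the 54 small RNA members described below had a median of −1.04 and were 14 sets. The libraries of both groups did not overlap in 4 members (0.124%), namely Dbp, Uba1 and Psma6, higher in PRL, and Trappc5, lower, against 0.14% of all genes tested.

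**Figure D2:**
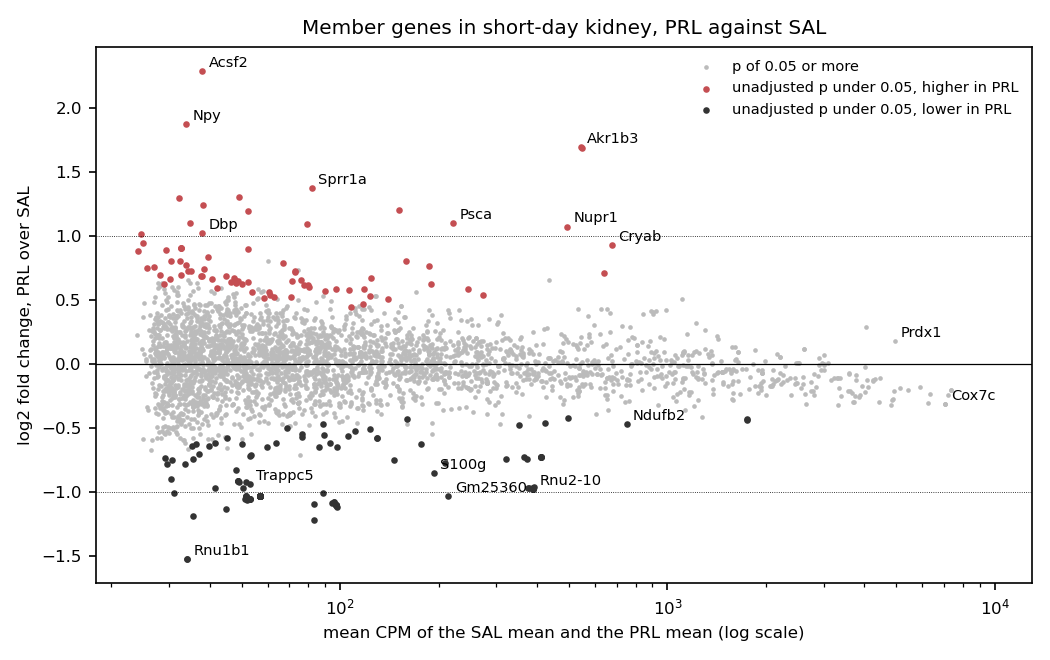
Log2 fold change of PRL over SAL (vertical) against mean CPM (horizontal, log scale) for the 3213 members, with dotted lines at a 2-fold change. The 78 red and 131 black members had an unadjusted edgeR p under 0.05, none passed an adjusted p of 0.05, and the scatter is narrower among abundant genes such as Cox7c.

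Genes of the prolactin pathway had few reads. Of its 27 listed genes 26 were in the table and 5 were members, namely Ghr, Igf1r, Igfbp3, Igfbp4 and Igfbp5, and 0 of these 5 had an unadjusted p under 0.05 in either direction (median log2 fold change 0.11, against −0.0016 over all members). Prlr, the receptor itself, had 26 reads, 6 in SAL and 20 in PRL libraries. Prlr was at 0 to 10.4 CPM in SAL libraries (median 1.53) and at 0 to 15.8 CPM in PRL libraries (median 7.95), and 3 SAL libraries and 1 PRL library had no read. The log2 fold change was 1.42 ± 0.71 (SE), with an unadjusted edgeR p of 0.052 and an exact permutation p of 0.145, and its 95% interval ran from −0.01 to 2.85. The value was 1.06 without SAL 4 and 2.48 without SAL 2, the SAL library with most Prlr. The groups overlapped over most of their range, and a difference in the receptor was not resolved at this depth.

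Downstream of the receptor, Jak2 was at 0 to 9.60 CPM in SAL and 0 to 9.20 CPM in PRL libraries. Stat5b was at 0 to 22.4 CPM (median 5.76) in SAL and 0 to 17.2 CPM (median 10.5) in PRL libraries, and Stat5a, with 7 reads, was too low to test. Cish, a target of Stat5 and an inhibitor of the receptor, was at 0 to 22.6 CPM (median 5.20) in SAL and 2.84 to 11.9 CPM (median 7.32) in PRL libraries, with a log2 fold change of −0.43 ± 0.63 that was 0.41 without SAL 4. Socs2, another target, had 0 to 2 reads in a SAL library and 0 to 3 in a PRL library. Socs2 was at 0 to 3.76 CPM in SAL and 0 to 11.5 CPM in PRL libraries (0.60 ± 0.77). In CPM 4 PRL libraries lay above SAL 4, the highest SAL library, but PRL 4 did so with 1 read against 2 in SAL 4. With so few reads that order depends on library depth, and a difference in Socs2 was not resolved. Socs3, with 14 reads, was at 0 to 9.60 CPM (median 5.34) in SAL and 0 to 9.20 CPM (median 0) in PRL libraries, and its log2 fold change was −1.78 ± 0.88 with an unadjusted edgeR p of 0.0494 and an exact permutation p of 0.177. Stat3, which had 91 reads, was at 12.2 to 27.4 CPM in SAL and 17.2 to 27.7 CPM in PRL libraries. The prolactin gene itself was not listed.

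Among genes of growth hormone and insulin-like growth factors, Igf1 had 20 reads, whereas the 5 members had at least 120. Ghr, the growth hormone receptor, which also signals through Jak2, was at 24.5 to 67.6 CPM (median 35.9) in SAL and 34.0 to 62.0 CPM (median 46.7) in PRL libraries (0.24 ± 0.28). Igfbp5, a binding protein of insulin-like growth factors, was at 35.2 to 91.9 CPM (median 61.6) in SAL and 36.8 to 108 CPM (median 92.5) in PRL libraries (0.35 ± 0.26). Igfbp3 was at 111 to 297 CPM in SAL and 108 to 297 CPM in PRL libraries (−0.10 ± 0.27). In all of them the groups overlapped.

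The 10 members with the smallest p among those higher in PRL were Npy, Akr1b3 and its near copy Gm6644, Acsf2, Sprr1a, Sptssb, Upk1a, Dbp, Cryab and Psca, and none passed an adjusted p of 0.05. Npy, a neuropeptide, was at 3.76 to 38.4 CPM (median 12.6) in SAL and 23.0 to 103 CPM (median 41.7) in PRL libraries. The log2 fold change was 1.88 ± 0.43 with an unadjusted edgeR p of 7.78e-05, an adjusted p of 0.165 and an exact permutation p of 0.0281. Only SAL 6 reached into the PRL range, and without it the value was 2.42 with an edgeR adjusted p of 0.00127. Acsf2, an acyl-CoA synthetase, was at 0 to 40.5 CPM (median 7.40) in SAL and 0 to 135 CPM (median 64.4) in PRL libraries (2.29 ± 0.54). It had no read in 2 SAL libraries and 1 PRL library, and its edgeR adjusted p was 0.0283 without PRL 3.

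Akr1b3, the aldose reductase that makes sorbitol in cells exposed to high salt, was at 65.0 to 589 CPM (median 190.4) in SAL and 239 to 2234 CPM (median 620.1) in PRL libraries. Its difference was 1.69 ± 0.39 on the log2 scale (unadjusted edgeR p = 9.92e-05, adjusted p = 0.165, exact permutation p = 0.0216). PRL 3 set the top of the range, and the value was 1.11 without it and 2.172 without SAL 6, when the edgeR adjusted p was 0.00112. Cryab, a small heat shock protein abundant in the inner medulla, was at 265 to 820 CPM (median 373) in SAL and 414 to 1676 CPM (median 775) in PRL libraries (0.93 ± 0.27). Clu, a secreted chaperone, was at 6.12 to 32.0 CPM (median 16.3) in SAL and 11.5 to 56.7 CPM (median 29.9) in PRL libraries (1.02 ± 0.37). Of 14 medulla and osmotic genes, a list drawn up after values were seen and so not tested, 13 were in the table and 8 were members, 7 with a log2 fold change above 0. Their summed level was 666 to 1783 CPM in SAL and 1062 to 4389 CPM in PRL libraries. The member below 0 was the taurine transporter Slc6a6 (−0.23), and the osmotic regulator Nfat5 was at 0.12. Under 120 reads, the log2 fold change was −0.04 for the inositol transporter Slc5a3, 1.36 for the betaine transporter Slc6a12 (2 reads in SAL, 7 in PRL) and 0.69 for the urea transporter Slc14a2 (4 and 8).

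Urothelial genes had higher medians in PRL. Urothelium lines the renal pelvis, and its surface plaques are built of uroplakins. Upk1a, a uroplakin, was at 4.57 to 67.3 CPM (median 22.9) in SAL and 32.2 to 121 CPM (median 60.7) in PRL libraries (1.31 ± 0.37, unadjusted edgeR p = 0.00114, exact permutation p = 0.0303). Upk3a was at 111 to 223 CPM (median 129) in SAL and 147 to 304 CPM (median 242) in PRL libraries (0.63 ± 0.22). Sprr1a, a cross-linked protein of stratified epithelia, was at 7.80 to 119 CPM (median 37.2) in SAL and 59.8 to 214 CPM (median 101) in PRL libraries (1.38 ± 0.36), and without SAL 5 its edgeR adjusted p was 0.0235. Psca, a surface protein of urothelium, was at 41.6 to 317 CPM (median 94.7) in SAL and 189 to 573 CPM (median 222) in PRL libraries (1.10 ± 0.34). The value for Psca was 1.55 without SAL 6, with an edgeR adjusted p of 0.00532, and 0.82 without PRL 3. It was 1.49 without the 4 libraries lowest in proximal tubule genes, with an edgeR adjusted p of 0.000456. That fit, chosen after seeing the data, leaves out SAL 5 (223 CPM) and SAL 6 (317 CPM), the highest SAL libraries in Psca. It also leaves out PRL 3 (573 CPM) and PRL 6 (425 CPM), the highest PRL libraries. The gap between the groups in that fit therefore depends on which libraries were left out. Psca was not called in the reported fit. In each of these urothelial genes the lowest PRL library was above the SAL median and the highest SAL library was SAL 5 or SAL 6.

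Of 16 urothelial genes, again listed after values were seen and not tested, 15 were in the table and 7 were members, all 7 with an unadjusted p under 0.05 and higher in PRL. Their choice fixed that direction, so the count is a description only. Among listed genes under 120 reads, Upk2 had 6 reads in SAL and 28 in PRL, Upk1b 27 and 51, Krt5 3 and 12, Krt20 2 and 9, and Trp63 2 and 0. The summed level was 263 to 875 CPM in SAL and 598 to 1692 CPM in PRL libraries, and it was highest in PRL 3, PRL 6, PRL 5 and SAL 5. The part of renal pelvis tissue in these values was not tested.

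Cox8b, Thrsp and Dgat2, chosen after their values were seen, had higher medians in PRL. Cox8b, a cytochrome oxidase subunit of muscle and brown fat, was at 0 to 282 CPM (median 13.1) in SAL and 33.0 to 402 CPM (median 253) in PRL libraries (1.201 ± 0.57). In the reported fit Cox8b did not pass an adjusted p of 0.05. The value for Cox8b was 0.88 without SAL 4 and 2.11 without SAL 6. It was 4.197 with an edgeR adjusted p of 1.13e-05 without the 4 libraries lowest in proximal tubule genes. That fit leaves out SAL 5 and SAL 6, the highest SAL libraries in Cox8b, and also PRL 3 and PRL 6. With the replicate block the value was 1.99 with an edgeR adjusted p of 2.89e-07. The methods name no pairs of animals behind the sample numbers, so that fit lends no support. Thrsp, a regulator of fat synthesis, was at 9.40 to 67.2 CPM (median 21.3) in SAL and 20.1 to 155 CPM (median 79.6) in PRL libraries (1.19 ± 0.41). Dgat2, which makes triglyceride, was at 10.4 to 25.6 CPM (median 19.5) in SAL and 16.7 to 121 CPM (median 37.5) in PRL libraries (1.10 ± 0.39). SAL 5 and SAL 6 were well above the other SAL libraries in Cox8b. The adipose and adrenal list had 14 of its 20 genes in the table, 4 members and 0 with an unadjusted p under 0.05 in either direction (median 0.41). Its summed level was 220 to 566 CPM in SAL and 323 to 753 CPM in PRL libraries, Cyp11b1 and Star were not listed, and the part of attached fat in these values was not tested.

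**Figure D3:**
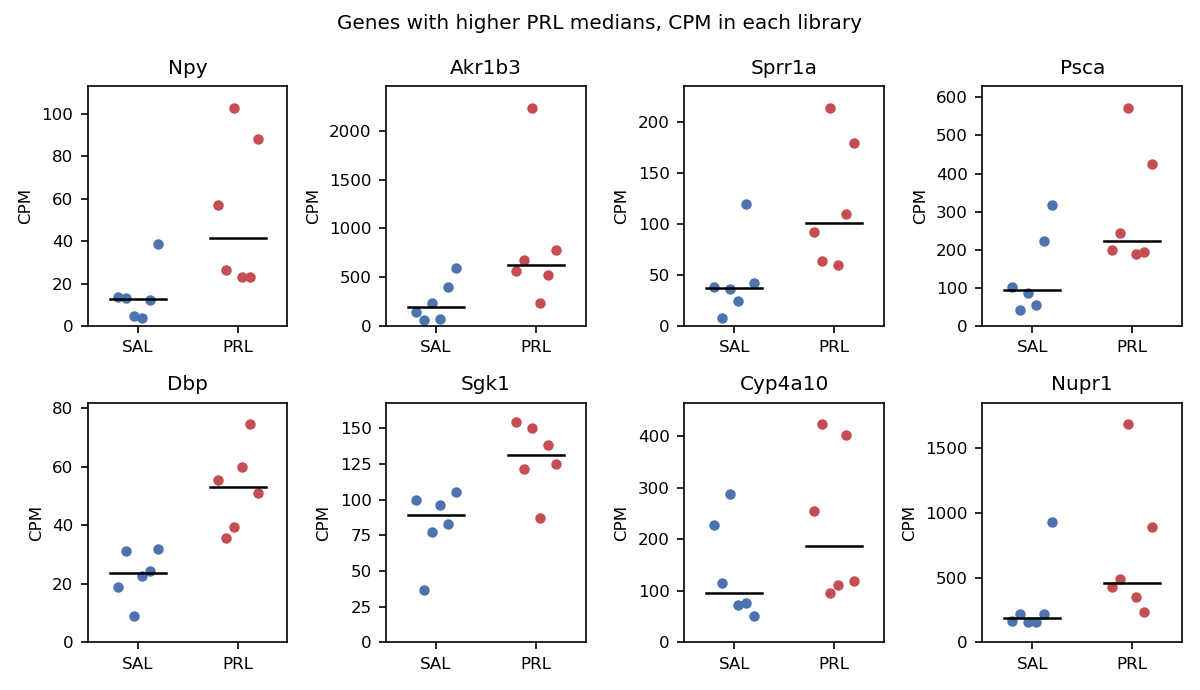
CPM in each of 6 SAL (blue) and 6 PRL (red) libraries for 8 genes with a higher PRL median, with a bar at the group median and a separate vertical scale for each gene. The groups do not overlap in Dbp, whereas in Npy, Akr1b3, Psca and Nupr1 the highest SAL library, SAL 6, lies among the PRL libraries.

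Dbp, a transcription factor at the output of the circadian clock, had the smallest p among the members with all 6 PRL libraries above all 6 SAL libraries. Dbp was at 9.13 to 32.0 CPM (median 23.5) in SAL and 35.7 to 74.7 CPM (median 53.2) in PRL libraries. Its difference was 1.02 ± 0.30 on the log2 scale, and its edgeR adjusted p was 0.298. Its exact permutation p was 0.00216, the smallest that 6 against 6 libraries can give and the value of every gene without overlap. The log2 fold change stayed between 0.86 and 1.11 when any library was left out. Of 20 clock genes 19 were in the table and 4 were members, 1 of them (Dbp) with an unadjusted p under 0.05 and all 4 above 0 (median 0.35). Tef, a relative of Dbp with the same binding site, was at 2.601 to 92.8 CPM (median 34.4) in SAL and 38.5 to 63.2 CPM (median 44.6) in PRL libraries, and Bhlhe40, a clock repressor, was at 25.6 to 54.8 CPM (median 35.3) in SAL and 18.5 to 107 CPM (median 52.1) in PRL libraries. Neither had an unadjusted p under 0.05.

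The libraries of both groups also did not overlap in Uba1 and Psma6. Such separation was no more frequent among members (0.124%) than among all genes tested (0.14%). Uba1, the enzyme that starts ubiquitin transfer, was at 3.06 to 22.4 CPM (median 19.5) in SAL and 23.0 to 43.6 CPM (median 33.1) in PRL libraries (0.95 ± 0.34). Psma6, a subunit of the proteasome core, was at 135 to 162 CPM (median 149) in SAL and 168 to 224 CPM (median 176) in PRL libraries, but its difference was small (0.23 ± 0.20). Among the 36 proteasome members 22 were above 0 and 14 below (median 0.06), and 0 had an unadjusted p under 0.05.

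Most collecting duct members had fold changes above 0. Of 27 listed genes 10 were members, 8 above 0 and 2 below, with a median log2 fold change of 0.26 against −0.0016 over all members. At an unadjusted p under 0.05, 2 were higher and 0 were lower. Over all members 2.43% were higher at that level, and the smallest edgeR adjusted p of the list was 0.754. Sgk1, the aldosterone-induced kinase that raises sodium uptake, was at 36.4 to 106 CPM (median 89.3) in SAL and 87.4 to 154 CPM (median 131) in PRL libraries. The log2 fold change was 0.57 ± 0.24 with an unadjusted edgeR p of 0.0225 and an exact permutation p of 0.00866, and 5 PRL libraries lay above every SAL library. Krt8, a keratin of simple epithelia, was at 33.7 to 100 CPM (median 49.7) in SAL and 64.4 to 109 CPM (median 99.4) in PRL libraries (0.66 ± 0.26). Aqp2, the vasopressin-regulated water channel, had 63 reads and is no member. Aqp2 was at 3.06 to 22.8 CPM (median 8.01) in SAL and 5.75 to 28.4 CPM (median 18.3) in PRL libraries (0.96 ± 0.46, unadjusted edgeR p = 0.0423, exact permutation p = 0.167). The intercalated cell subunit Atp6v1g3 and the duct regulator Fxyd4 had log2 fold changes of −0.12 ± 0.20 and 0.53 ± 0.29.

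Genes of tubule injury included 11 members, 10 above 0 (median 0.23). Of these, Clu, S100a11 and Anxa2 were higher with an unadjusted p under 0.05 and 0 were lower. Over all members 2.43% were higher at that level, and the smallest edgeR adjusted p of the list was 0.652. The count of higher members was 1 with summed transcripts, without SAL 2 or without PRL 2, and 4 without SAL 5. S100a11, a calcium-binding protein, was at 146 to 236 CPM (median 194) in SAL and 161 to 440 CPM (median 316) in PRL libraries (0.58 ± 0.23). Anxa2, a membrane-binding annexin, was at 60.8 to 147 CPM (median 117) in SAL and 133 to 198 CPM (median 164) in PRL libraries (0.51 ± 0.22). Without the 4 libraries lowest in proximal tubule genes the median of this list was 0.08. Nupr1, a stress-induced nuclear protein, was at 155 to 932 CPM (median 191) in SAL and 236 to 1688 CPM (median 458) in PRL libraries (1.07 ± 0.38). The next SAL library after SAL 6 was at 221 CPM, and the value was 1.84 without it and 0.59 without PRL 3.

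Genes of the Cyp4a family of fatty acid hydroxylases had higher medians in PRL and were highest in libraries rich in proximal tubule genes. Cyp4a10 was at 51.2 to 288 CPM (median 95.5) in SAL and 94.9 to 424 CPM (median 187) in PRL libraries (0.76 ± 0.33, unadjusted edgeR p = 0.026, exact permutation p = 0.188). Cyp4a14 was at 22.4 to 196 CPM (median 82.3) in SAL and 78.2 to 247 CPM (median 145) in PRL libraries (0.67 ± 0.32). In both groups the libraries richest in proximal tubule genes, SAL 3 and SAL 1 or PRL 2 and PRL 5, were highest, and the part of the proximal tubule share in these values was not tested. All 7 Cyp4a members were above 0 (median 0.67, or 0.48 without the 4 libraries lowest in proximal tubule genes), but the list was made after values were seen and their reads may be shared among paralogs. In the wider list of cytochrome P450 and glucuronidation genes, 19 were members, 17 above 0 (median 0.24). The 4 with an unadjusted p under 0.05, all higher, were Cyp4a10, Cyp4a14, Cyp4a31 and Cyp4a32. Over all members 2.43% were higher at that level, and the smallest edgeR adjusted p of this list was 0.708. The abundant Cyp2e1 had a log2 fold change of −0.16 ± 0.23.

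The members with the smallest p that were lower in PRL were mostly copies of small nuclear RNAs and gene models named by number. Small nuclear RNAs form the core of the splicing machinery and, like 5S ribosomal RNA, carry no usual poly(A) tail. Rnu2-10, a copy of the U2 splicing RNA whose counts were shared by 10 further gene models, was at 332 to 1009.9 CPM (median 401) in SAL and 189 to 427 CPM (median 255) in PRL libraries. The log2 fold change was −0.98 ± 0.25 with an unadjusted edgeR p of 0.000272, an adjusted p of 0.165 and an exact permutation p of 0.0195. Rnu1a1, a U1 splicing RNA, was at 75.4 to 269 CPM (median 103) in SAL and 39.7 to 119 CPM (median 58.0) in PRL libraries (−1.11 ± 0.29). Rn5s, the 5S ribosomal RNA whose set held 32 members, was at 41.1 to 122 CPM (median 71.7) in SAL and 11.5 to 92.0 CPM (median 38.02) in PRL libraries (−1.04 ± 0.32). In all of these SAL 5 was the highest of the 12 libraries, and PRL 3 or PRL 4 was the highest PRL library.

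Calls of these RNAs changed with single libraries. Without PRL 3 the edgeR adjusted p of Rnu2-10 was 0.0283 and without PRL 4 that of Rn5s was 0.0358, while without SAL 5 the log2 fold change of Rnu2-10 was −0.69. The sum over 70 small RNA genes was 4423 to 11907 CPM in SAL and 2149 to 6782 CPM in PRL libraries. This list was made after values were seen and was not tested. All of its 54 members had a log2 fold change below 0 and 53 had an unadjusted p under 0.05. They were 14 sets of near copies, and 13 of these sets held a member at that level. Gm22973 and Gm25360, gene models with a number for a name, were also among the 10 lower members with the smallest p. Gm22973 was at 62.2 to 226 CPM (median 96.4) in SAL and 36.8 to 68.1 CPM (median 52.6) in PRL libraries (−1.22 ± 0.28), and 5 PRL libraries lay below every SAL library.

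Trappc5, a subunit of the complex that tethers vesicles at the Golgi, was the lower protein-coding member with the smallest p. Trappc5 was at 57.2 to 89.2 CPM (median 66.6) in SAL and 23.7 to 48.2 CPM (median 36.8) in PRL libraries, with no overlap. Its difference was −0.94 ± 0.25 on the log2 scale, with an edgeR adjusted p of 0.206. The difference stayed between −1.08 and −0.85 when any library was left out. Its exact permutation p of 0.00216 is the smallest possible and follows from the lack of overlap.

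Other protein-coding members with small p and lower PRL medians were S100g, Spp2 and Gnmt. S100g, the vitamin D-dependent calbindin of calcium-absorbing cells, was at 132 to 316 CPM (median 265) in SAL and 67.2 to 189.6 CPM (median 160.0) in PRL libraries (−0.86 ± 0.24, unadjusted edgeR p = 0.000805, adjusted p = 0.246, exact permutation p = 0.0173). Only SAL 3 lay among the PRL libraries, and without it the value was −1.02. Calb1, the larger calbindin of the distal tubule, was at 304 to 781 CPM (median 535) in SAL and 275 to 948 CPM (median 505) in PRL libraries (−0.09 ± 0.22). Spp2, a secreted phosphoprotein, was at 105 to 221 CPM (median 178) in SAL and 67.2 to 178 CPM (median 114) in PRL libraries (−0.75 ± 0.23). Gnmt, which methylates glycine, was at 38.4 to 80.6 CPM (median 68.5) in SAL and 15.8 to 55.3 CPM (median 33.6) in PRL libraries (−0.83 ± 0.29). Among 56 solute carrier members, 29 were above 0 and 27 below (median 0.02). Of these 56, 0 were higher and 2 were lower with an unadjusted p under 0.05. Over all members 4.08% were lower at that level, or 1.98% with near copies taken once. The 2 were the acetyl-CoA transporter Slc33a1 (−0.71 ± 0.26) and the creatine transporter Slc16a12 (−0.64 ± 0.29).

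**Figure D4:**
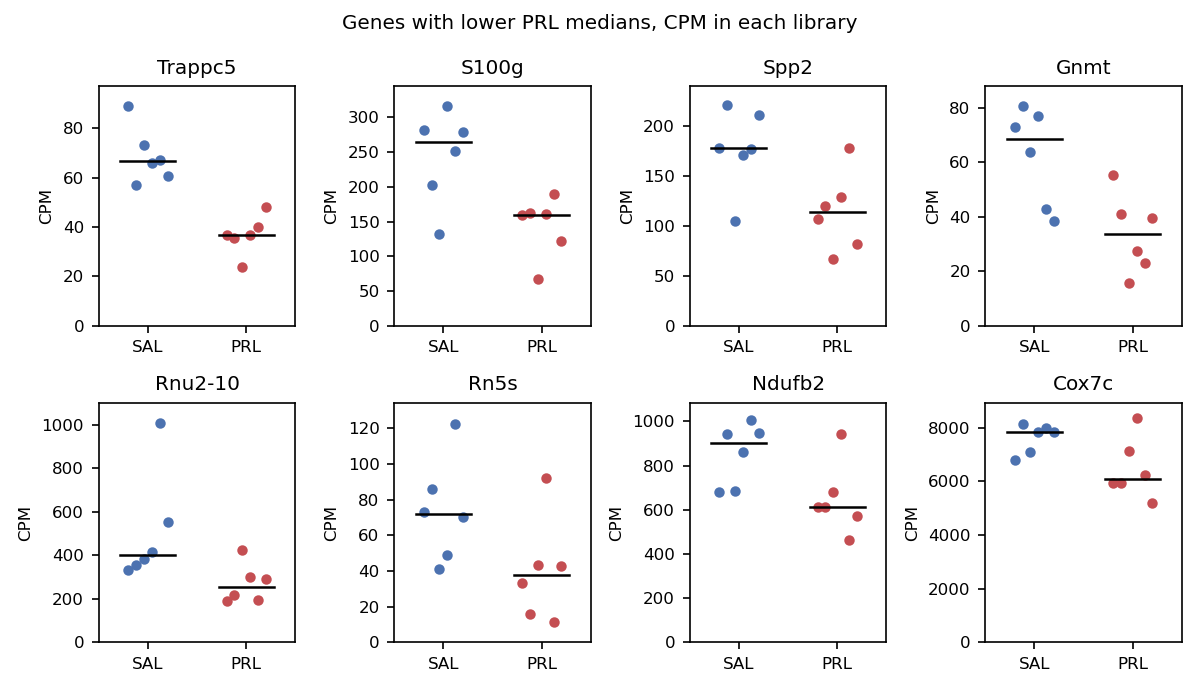
CPM in each of 6 SAL (blue) and 6 PRL (red) libraries for 8 genes with a lower PRL median, with a bar at the group median and a separate vertical scale for each gene. The groups do not overlap in Trappc5, SAL 3 is the one SAL library inside the PRL range of S100g, and SAL 5 is far above the rest in Rnu2-10 at 1009.9 CPM.

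Most subunits of oxidative phosphorylation had fold changes slightly below 0. Of 84 listed genes 81 were members, 66 below 0 and 15 above, with a median log2 fold change of −0.13 against −0.0016 over all members. The median was −0.06 with library totals alone and ran from −0.20 to −0.10 when libraries were left out. Unadjusted p values under 0.05 were found in 3 lower members and 0 higher ones. Over all members 4.08% were lower at that level, or 1.98% with near copies taken once, and 2.34% of all genes tested. Ndufb2, a subunit of complex I, was at 678 to 1007 CPM (median 902) in SAL and 465 to 943 CPM (median 613) in PRL libraries (−0.47 ± 0.19). Also lower were Ndufb7 of complex I (−0.46 ± 0.21) and Atp5e of the ATP synthase (−0.51 ± 0.23). Cox7c, a cytochrome oxidase subunit among the most counted members, was at 6787 to 8118 CPM (median 7833) in SAL and 5210 to 8355 CPM (median 6076) in PRL libraries (−0.31 ± 0.16, unadjusted edgeR p = 0.0545, exact permutation p = 0.0455), and 4 PRL libraries lay below every SAL library while PRL 4 lay above.

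Most ribosomal proteins were likewise slightly below 0. Of 79 members 58 were below 0 and 21 above (median −0.10, or −0.03 with library totals alone). The median was −0.02 without PRL 5 or without SAL 4 and −0.21 without PRL 6. Of the members, 1, Rpl41 (−0.44 ± 0.21), had an unadjusted p under 0.05. Both lists are abundant: they took 117550 to 149606 CPM for oxidative phosphorylation and 135964 to 202336 CPM for ribosomal proteins over both groups. The citrate cycle, by contrast, had 14 of 24 members above 0 (median 0.05), and fatty acid oxidation had 17 of 28 above 0 (median 0.04), each with 0 members under an unadjusted p of 0.05 in either direction. Fabp3, a fatty acid carrier, was at 1315 to 1773 CPM (median 1547) in SAL and 1364 to 1914 CPM (median 1539) in PRL libraries (−0.04 ± 0.17).

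**Figure D5:**
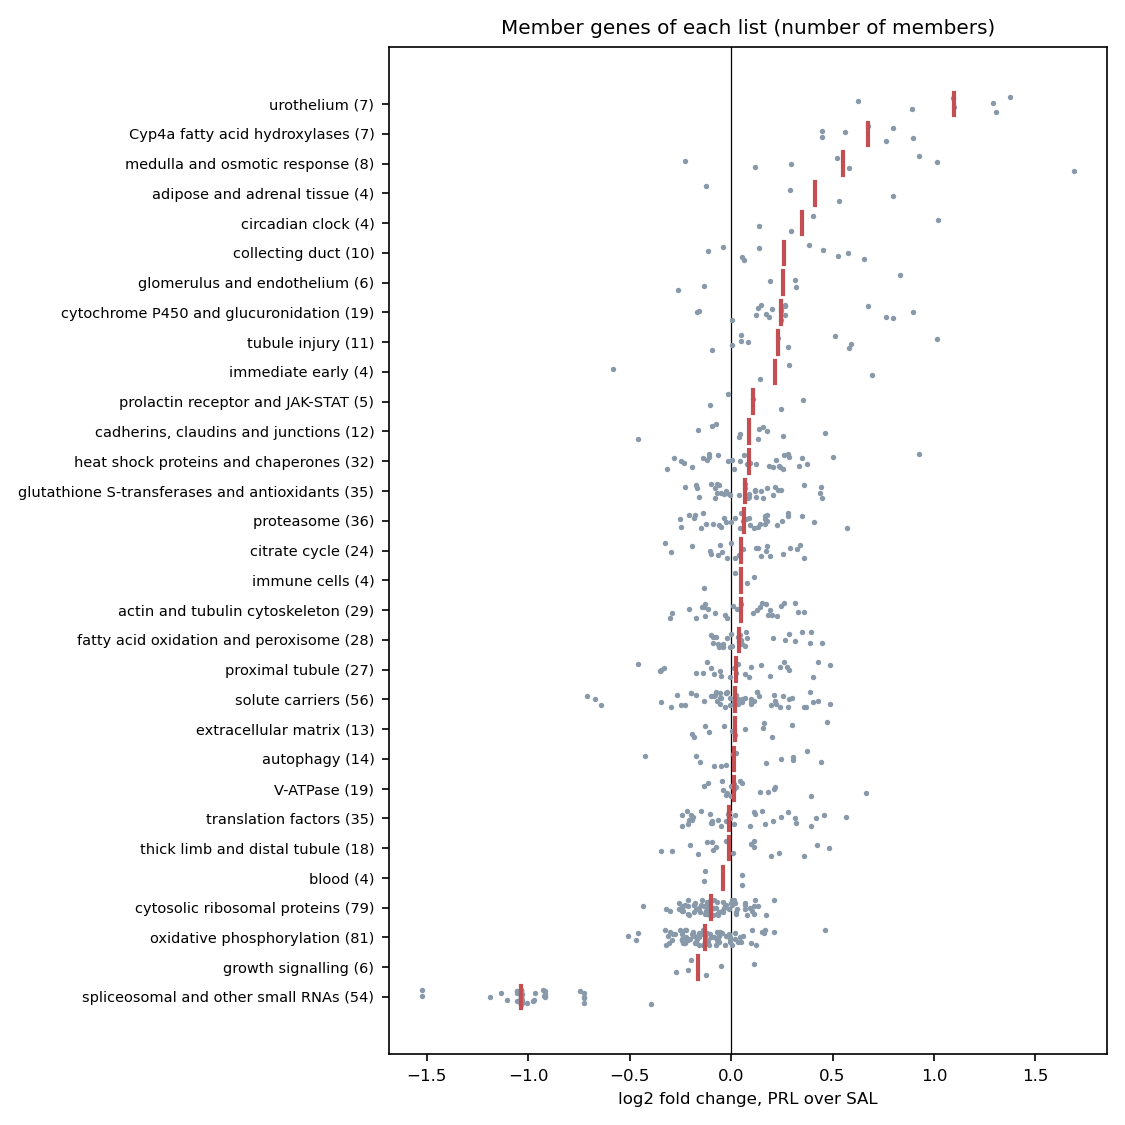
Log2 fold change of PRL over SAL for the members of each gene list with 4 or more members (points) and its median (red bar), lists ordered by median and the number of members in parentheses. Medians run from −1.04 for small RNAs to 1.10 for urothelium, 2 lists made after values were seen, and the proximal tubule (0.02) and the thick limb and distal tubule (−0.01) lists lie near 0.

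Genes that mark the tubule segments of salt and water transport outside the collecting duct had medians near 0. Of the proximal tubule list 27 were members, 15 above 0 and 12 below (median 0.02), and 0 had an unadjusted p under 0.05. The thick limb and distal tubule list had 18 members, 9 on each side of 0 (median −0.01) and 0 under an unadjusted p of 0.05. Glomerular and endothelial genes had 6 members, 4 above 0 (median 0.25). One of them, Plat, the tissue plasminogen activator, was at 16.9 to 36.7 CPM (median 29.1) in SAL and 28.7 to 103 CPM (median 43.9) in PRL libraries (0.83 ± 0.31, unadjusted edgeR p = 0.0101, exact permutation p = 0.013).

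Blood and immune genes had 4 members each, with medians of −0.04 and 0.05, and 0 were under an unadjusted p of 0.05. The globins Hbb-bs (−0.13 ± 0.19) and Hba-a1 (0.05 ± 0.21) were within their error of no difference, and H2-D1, of antigen presentation, was at 131 to 143 CPM in SAL and 126 to 179 CPM in PRL libraries. Immediate early genes had 4 members, among them Nfkbia, an inhibitor of NF-kB, higher (0.70 ± 0.33) and Gadd45a, a growth arrest gene, lower (−0.58 ± 0.29), both with an unadjusted p under 0.05.

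Growth signalling had 6 members, 5 of them below 0, with a median of −0.16. Other lists of tissue growth and structure had medians closer to 0: cell cycle had 2 members with −0.09, extracellular matrix 13 with 0.02, actin and tubulin 29 with 0.05, autophagy 14 with 0.02 and translation factors 35 with −0.01, and all had 0 members under an unadjusted p of 0.05. Ccnd1, a cyclin of cell cycle entry, was at 64.9 to 97.9 CPM (median 70.0) in SAL and 45.4 to 94.9 CPM (median 63.4) in PRL libraries (−0.28 ± 0.23). Mgp, a matrix inhibitor of calcification, was at 480 to 831 CPM (median 647) in SAL and 601 to 1092 CPM (median 742) in PRL libraries (0.30 ± 0.20). The remaining lists each had at most 1 member under an unadjusted p of 0.05, all higher: Cryab among 32 heat shock proteins (median 0.09), Epcam (0.46 ± 0.22) among 12 junction genes (median 0.09), Atp6v0d1 (0.66 ± 0.31) among 19 V-ATPase subunits (median 0.01) and none among 35 glutathione and antioxidant genes (median 0.07).

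The 11 genes that the study plotted for this experiment were chosen by its authors with these samples and are not independent evidence. Only Cdh2, a cadherin of tubule cells, was a member. Cdh2 was at 8.11 to 61.2 CPM (median 42.6) in SAL and 5.75 to 43.5 CPM (median 25.7) in PRL libraries (−0.46 ± 0.35, unadjusted edgeR p = 0.197, exact permutation p = 0.221), and it was lowest in SAL 1 and PRL 5. The other 10 had 4 to 106 reads. Slc8b1, the mitochondrial sodium-calcium exchanger, with 21 reads, was at 3.20 to 12.2 CPM (median 7.17) in SAL and 0 to 5.75 CPM (median 1.32) in PRL libraries (−1.42 ± 0.68, unadjusted edgeR p = 0.0427, exact permutation p = 0.026). Gsk3a, a kinase of insulin signalling, with 36 reads, was at 2.601 to 9.13 CPM (median 6.02) in SAL and 8.37 to 11.9 CPM (median 10.96) in PRL libraries (0.78 ± 0.50, unadjusted edgeR p = 0.123, exact permutation p = 0.00433). Both rest on a few reads per library, and 0 of the 11 passed an adjusted p of 0.05 with edgeR.

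Abundant members had small differences. Prdx1, a peroxide-removing enzyme, was at 2878 to 6239 CPM (median 4576) in SAL and 3005 to 8371 CPM (median 5461) in PRL libraries (0.18 ± 0.20). Gpx3, the glutathione peroxidase that kidney secretes into plasma, was at 2670 to 5311 CPM (median 4004) in SAL and 2531 to 5102 CPM (median 4193) in PRL libraries (−0.02 ± 0.19). Rps29 (−0.24 ± 0.19), Atp5md (−0.24 ± 0.17) and Ndufa4 (−0.18 ± 0.16) were lower by about their error. Eif1, which selects the start codon, was at 930.3 to 1292 CPM (median 1027) in SAL and 1111 to 1554 CPM (median 1453) in PRL libraries (0.32 ± 0.18), with 4 PRL libraries above every SAL library.

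Members differed widely in their spread between animals. Among 1174 members with at least 500 reads the median SD was 21.7% of the mean in SAL and 23.0% in PRL libraries. Rbx1, of ubiquitin ligases, was among the steadiest, at 503 to 574 CPM in SAL and 530.3 to 645 CPM in PRL libraries (0.01 ± 0.18). At the other end stood a group of members whose counts moved with Bc1, a small noncoding RNA known from neurons. Bc1 was at 227 to 6857 CPM (median 340.4) in SAL and 582 to 3361 CPM (median 833) in PRL libraries. SAL 6 alone held the top of the SAL range, where the next library had 799 CPM. With all libraries the log2 fold change was −0.06 ± 0.53, and without SAL 6 it was 1.89 with an edgeR adjusted p of 0.00156. Akap5, the gene of a kinase-anchoring protein in the same group, was at 211 to 7392 CPM in SAL and 549.9 to 3847 CPM in PRL libraries. Its value went from −0.05 ± 0.55 to 2.01 without SAL 6. In reads Akap5 stayed close to Bc1, with 2309 and 2142 in SAL 6 and 973 and 850 in PRL 3. Whether the genes of this group counted the same reads was not tested, so these counts need not be of Akap5 itself.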

How the data were processed

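Kidney cDNA of 12 short-day female hamsters was sequenced by nanopore on 1 flow cell. The authors basecalled with Guppy, trimmed with Porechop, filtered with Filtlong, aligned to the mouse genome with Minimap2, and deposited unscaled estimated counts for mouse RefSeq transcripts. Salmon and minimap2 are listed in the submitters' processing notes. The counting tool and its sharing of reads are not given: 70.9% of 71590 transcripts had the same counts as another, so sums over transcripts may count a read more than once. Groups came from the sample titles. Separate animals were the replicates. The members, lists and tests were chosen with earlier results of these data known.

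The transcript with most reads was taken for each gene and CPM was its count divided by the library total of these rows. Counts were rounded (3447 of 859080 values were not whole) and fitted in R 4.3.3 with the quasi-likelihood test of edgeR 4.0.16, TMM scaling, no covariate and a filter for genes counted in 6 or more of 12 libraries. Benjamini-Hochberg adjustment ran over all 10696 genes tested, with a threshold of 0.05. The SE was the size of the log2 fold change divided by the square root of F. Exact permutation tests were two-sided, on mean CPM over 924 splits. DESeq2 1.42.0 and limma 3.58.1 were alternatives. The fits were tested on simulated data first. Named genes were the 10 members with smallest p in each direction, the 12 with highest mean CPM, 3 with most reads of each list, and all genes of the prolactin and study lists. Some of these genes are not reported here. Exceptions, chosen after their values were seen, are Trappc5, S100g, Spp2, Gnmt, Rnu1a1, Rn5s, Uba1, Psma6, Bc1, Akap5, Rbx1, Cox8b, Thrsp, Dgat2, Nupr1, Clu, Upk3a and Aqp2, other marker genes of the tissue check, genes of a list with an unadjusted p under 0.05, and the urothelium, medulla, small RNA and Cyp4a lists.

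Same-numbered libraries were not taken as pairs, since the methods name no pairs of animals. Their deviations correlated between −0.41 and 0.47. No value column was left unused in this table, and the table of the male photoperiod experiment was not used.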

Additional observations from a re-analysis of the deposited data

Results flagged for a closer look

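Single libraries stood apart from the other 5 of their group in 30 of 372 groups of 6 (8.06%), by a gap to the nearest library above Dixon's 95% critical value. For values with a normal distribution, chance alone gives such a gap in about 1 in 20 groups. The CPM were not transformed, some genes were chosen after their values were seen, and the genes are not independent of each other. The 8.06% therefore cannot be judged against that rate. SAL 5 and SAL 6 (8 times each) were named most often.

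SAL 6 was the highest SAL library in Npy (38.4 CPM), Nupr1 (932 CPM), Gadd45a (92.8 CPM), Etfb (1060 CPM), Bc1 (6857 CPM), Akap5 (7392 CPM), Ifi27l2b (1300 CPM) and S100a4 (115 CPM). SAL 5 was the highest SAL library in Sprr1a (119 CPM), Rnu2-10 (1010 CPM), Rnu1a1 (269 CPM), Gm23238 (242 CPM), n-R5s194 (91.8 CPM), Gm25189 (147 CPM) and the cell cycle sum (324 CPM), and the lowest in Uba1 (3.06 CPM). SAL 2 was highest in Ghr (67.6 CPM).

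Among PRL libraries, PRL 3 was highest in Akr1b3 (2234 CPM), Sptssb (174 CPM), Rps6 (3570 CPM), Plat (103 CPM) and the growth signalling sum (4140 CPM). PRL 4 was highest in Ppa1 (124 CPM), n-R5s115 (92.0 CPM) and H2-K1 (124 CPM), PRL 5 in Car3 (213 CPM), Cyp2e1 (569 CPM) and Psma6 (224 CPM), PRL 1 in Rbx1 (645 CPM) and PRL 6 in Mt3 (79.4 CPM).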

How the results depend on the processing

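Among alternatives with all 12 libraries, 0 members were called with DESeq2 size factors, library totals alone, DESeq2, limma-voom, only genes of 120 reads or more, a count in all 12 libraries, counts summed over transcripts, the exact permutation test, 1 gene of each near-copy set or members of at least 240 reads. Of these, the exact permutation test could hardly call any gene, since its smallest possible p is 0.00216. Without a filter 86 members and 92 of all genes were called, and with robust estimation 4 and 4. With the replicate block 49 members and 52 of all genes were called. The number of prior degrees of freedom, by which edgeR lends the spread of all genes to each gene, was 29.9 in the reported fit, 214 with the replicate block, 157 with robust estimation and without bound with no filter. Counts summed over transcripts called 1 gene of all. Leaving out 1 library gave 0 to 44 called members, and likewise 0 to 44 of all genes. Without the 4 libraries lowest in proximal tubule genes, added after seeing the data, 32 members and 34 of all genes were called. The cause of these moves was not tested.

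Members higher at an unadjusted p under 0.05 numbered 31 with summed transcripts and 39 with at least 240 reads, and 47 to 93 leaving out 1 library. Lower members numbered 75 with summed transcripts, 56 with the exact permutation test, 78 (beside 66 higher) in a new fit with 1 gene of each near-copy set, and 60 with at least 240 reads. Every one of the 209 members kept its sign with DESeq2 size factors, library totals, DESeq2, limma-voom and each left-out library. They were picked in these same libraries, so kept signs are no independent support. An unadjusted p under 0.05 in the same direction was kept by 205 with DESeq2 size factors and by 152 to 191 leaving out 1 library. With summed transcripts 89 kept it, and likewise 89 with the exact permutation test.

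Bc1 and Akap5 reversed: with the replicate block to 0.87 and 0.85, without SAL replicate 6 to 1.89 and 2.01, and without the 4 libraries to 1.13 and 1.04, against −0.06 and −0.05 as reported and −0.43 and −0.49 without PRL replicate 3. For 188 genes, 4626 alternative values held 6 reversals, 83 newly called values and 10 moves. Of the uncalled values 212 changed sign with no unadjusted p under 0.05 in either fit.

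The methods name no pairs of animals and describe unpaired tests, so the sample numbers were not used as pairs. Of 6 libraries 2 correlated best with their own number, which is too few libraries to decide the question.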
